A study of Mus musculus with 6 samples.

Results

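Endothelial cells supply cytokines that keep lymphocytes, innate lymphoid cells, mast cells and myeloid cells alive in the gut wall, and 10 such genes were examined in the endothelium of mouse small intestine. They were chosen by name, with earlier results of these data known: the lymphocyte survival factors Il7 and Il15, the alarmins Il33 and Tslp, the growth factors Kitl, Flt3l, Csf1, Il34 and Csf3, and the inflammatory cytokine Il6. The 10 genes were covered by 19 probes, of 56605 probes other than controls and 22911 named genes on the array, matched through RefSeq accessions. Cells were sorted as CD45-CD31+CD90- blood vascular endothelial cells (VECs) and CD45-CD31+CD90+ lymphatic endothelial cells (LECs). All came from female animals, with at most 10000 cells sorted per sample, and 3 samples per population (VEC 2, 3 and 4, and LEC 6, 7 and 8) were hybridized to 1-color Agilent arrays. The strain, age and treatment of the animals behind these arrays, and whether the samples of a population came from separate mice, are not given in the sources used here, so that the p-values measure only the spread between these samples. GEO's description of the 3 LEC samples names VECs, and the grouping follows their titles.

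The labels were checked against marker genes. All 8 lymphatic markers were higher in LECs and all 8 blood vascular markers were lower. Reln was at least 4362-fold and Mmrn1 2976-fold higher, and Esm1 and Flt1 were 77.6-fold and 59.0-fold lower (limma adjusted p of at most 3.6e-06 for these 4 genes). For Reln this p-value came from the VEC signals as given, none well above background, and not from the bound. Markers of other cells were present as well, and their levels were summed per list as linear signal in units of the 75th percentile of the array. Of 6 tested fibroblast markers 5 were higher in LECs (sum per array 0.946 to 1.64 for VECs, 3.47 to 4.29 for LECs), although Pdgfra, Lum, Dpt and Fbln1 were each well above background on at most 1 array per population. All 6 enteric glia markers were higher in LECs (0.47 to 0.639 for VECs, 3.07 to 3.83 for LECs). Of 6 tested markers of T cells and innate lymphoid cells 3 were higher and 3 lower in LECs (5.03 to 6.4 for VECs, 8.65 to 10.1 for LECs), with Cd2 58.8-fold higher, and Cd3g, Cd8a and Ncr1 were not well above background on any array. Cd2 was the brightest of these markers in LECs (mean log2 signal 2.24, against -3.63 in VECs), and the higher LEC sum rested on it. The other markers that were higher, Cd3d and Klrb1c, were dim in LECs (-2.69 and -2.32). Of 14 tested myeloid markers 9 were higher and 3 lower in LECs (80.1 to 85.5 for VECs, 71.7 to 77.2 for LECs), and Fcgr1 was not measurable on any array. Itgam made up most of the myeloid sum, and without it the sums were 5.74 to 6.13 for VECs and 7.38 to 8.03 for LECs. Pericyte and smooth muscle markers, of which 2 of 10 were higher and 3 lower in LECs, summed to 39.8 to 48.2 for VECs and 82.7 to 93.3 for LECs. Without Kcnj8, which was 144-fold higher in LECs, they summed to 39.5 to 47.8 for VECs and 29 to 38.2 for LECs, so the order turned. In the other direction, 3 of 3 tested erythroid markers (14.3 to 35.4 for VECs, 0.428 to 2.05 for LECs) and 2 of 3 tested mast cell markers (6.49 to 8.08 and 2.47 to 2.89; Mcpt2 and Cma1 on no array) were lower in LECs, and without Hdc the mast cell sums overlapped (1.48 to 2.07 and 1.53 to 1.77). The part of these other cells in the differences given here was not tested. In sorted populations measured in bulk, fewer cells that carry a transcript and less transcript per cell cannot be told apart.

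These cytokines act over short distances on cells that carry their receptors. IL-7 and TSLP share the receptor subunit IL-7Rα, IL-7 and IL-15 share the common gamma chain, CSF1 and IL-34 share the receptor CSF1R, and IL-6 signals through gp130. IL-33 is kept in the nucleus and released when cells are damaged, and KITL exists as a membrane-bound and a shed form.

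The genes were divided between the populations. Taking for each of the 10 genes its brightest tested probe, LECs had the higher signal for 4 (Il7, Il33, Tslp and Flt3l) and VECs for 4 (Kitl, Csf3, Il6 and Il15), while Csf1 and Il34 did not pass the test (limma, adjusted p under 0.05 over 33776 probes). Over all 14971 named genes tested, 66.9% passed, 34.9% higher and 32.0% lower in LECs, so the share of the members that passed lay near that of all genes. By size, 5 of the 10 passed with over 5-fold, Il7 among them, against 9.87% of all named genes. Because the 10 genes were chosen with earlier results of these data known, this contrast only describes them. The median log2 difference was -0.12 over the members and 0.02 over all named genes. Every LEC array lay above every VEC array for 4 members and the reverse held for 4, against 39.1% and 35.9% of all named genes. Of the 19 member probes 18 were tested, and 8 of them were higher and 8 lower in LECs, where 64.0% of all tested probes passed, 31.2% higher and 32.8% lower. The 10 members were all tested, 9 of them through signals well above background on all 6 arrays and Il7 through the LEC arrays alone.

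**Figure D1:**
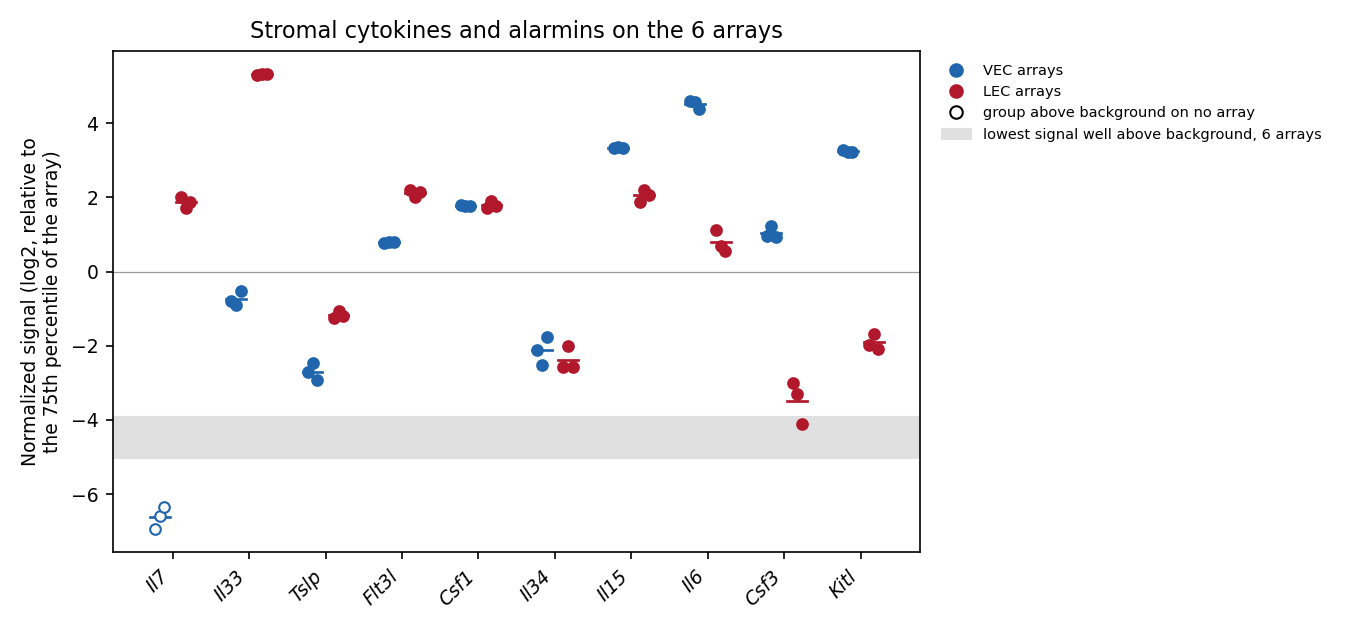
Normalized signal (log2, relative to the 75th percentile of each array) of the 10 genes for each VEC array (blue) and each LEC array (red), ordered by their difference; points are arrays and short lines are population means. Open points are not well above background, and gray shading gives the range over arrays of the dimmest measurable signal, so the VEC signals of Il7 lie below what the arrays could measure, whereas Kitl, Csf3, Il6 and Il15 are higher on every VEC array than on any LEC array.

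Il7, the survival cytokine of T cells and innate lymphoid cells, was measured in LECs alone. Its normalized log2 signal was 2.02, 1.71 and 1.87 on LEC 6, 7 and 8, and -6.95, -6.59 and -6.35 on VEC 2, 3 and 4. The VEC values correspond to intensities of 2.92, 3.45 and 4.59 units, below the dimmest signal that counted as well above background there (12.1, 14.2 and 13.8 units), so that Il7 had only an upper limit in VECs. Against the dimmest measurable signal in place of the VEC values, the LEC signal of Il7 was at least 97.3-fold higher (limma adjusted p = 4.1e-07). With the VEC signals as given, the limma adjusted p was 6.8e-07. The size depends on how background is treated. The log2 difference was 8.50 with the VEC signals as given, 6.60 with dim signals raised to the lowest signal well above background, and 4.23 after normexp correction of the median signals, where Il33 (5.74) and Kitl (-4.52) had larger differences than Il7.

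Il33, the nuclear alarmin, was bright in LECs and still measurable in VECs. Its brighter probe gave log2 signals of 5.31, 5.34 and 5.33 for the LECs and -0.79, -0.91 and -0.51 for the VECs, a 67.0-fold difference (95% interval 55.6 to 80.8, limma adjusted p = 5.6e-07). The LEC arrays differed among themselves by less than the VEC arrays did (SD 0.016 and 0.20, n = 3 each). The other Il33 probe gave 80.2-fold (95% interval 65.9 to 97.6), so both probes placed Il33 far higher in LECs. RefSeq gives Il33 more than 1 transcription start, and the 250 bases before each of the starts are shown because Il33 had the largest difference among members with a listed window. They lie at chr19:29924863-29925112 and chr19:29945540-29945789 (GRCm38.p6, plus strand). The letters of 6 motifs were searched on both strands: TATAAA, the C/EBP motif TTGCNNAA, the ETS motif CCGGAA, the AP-1 motif TGANTCA, the STAT motif TTCNNNGAA and the NF-kB motif. Capitals mark TATAAA and the C/EBP letters, the motifs found here.
Il33, upstream start: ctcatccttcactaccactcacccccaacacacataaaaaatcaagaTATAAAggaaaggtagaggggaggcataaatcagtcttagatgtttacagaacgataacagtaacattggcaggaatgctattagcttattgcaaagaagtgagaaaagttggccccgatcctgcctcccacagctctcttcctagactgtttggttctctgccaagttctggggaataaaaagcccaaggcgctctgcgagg
Il33, downstream start: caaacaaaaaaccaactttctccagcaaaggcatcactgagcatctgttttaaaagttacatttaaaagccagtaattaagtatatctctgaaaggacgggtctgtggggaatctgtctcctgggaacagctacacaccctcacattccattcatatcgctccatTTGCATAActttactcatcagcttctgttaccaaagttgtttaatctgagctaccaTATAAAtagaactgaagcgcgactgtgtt
The downstream window held TATAAA at -29 to -24, counted back from the start, and the upstream window held it at -203 to -198. Of all 32851 windows of the same length, 12.4% held TATAAA, 9.56% the C/EBP letters and 7.02% the STAT letters, which no listed window of a member held. The arrays do not tell from which start the Il33 transcripts came.

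Tslp, an alarmin best known from epithelium that acts on dendritic cells and type 2 innate lymphoid cells, was dim in both populations. Its log2 signals were -1.25, -1.07 and -1.19 for the LECs and -2.71, -2.45 and -2.92 for the VECs. Every LEC array lay above every VEC array, and Tslp was 2.88-fold higher in LECs (95% interval 2.31 to 3.60, limma adjusted p = 1.6e-04). The log2 difference, 1.53, was 0.92 after normexp correction. Of 9 tested epithelial markers 2 were higher and 2 lower in LECs, with sums of 4.48 to 8.83 for VECs and 8.16 to 12.3 for LECs, Epcam and Cdh1 well above background on 1 array per population, and Alpi on none. Without Lgals4 the sums overlapped (2.27 to 6.27 and 3.2 to 6.39). Whether epithelial cells had a part in the Tslp signal was not tested. Flt3l, the growth factor of dendritic cell precursors, was higher in LECs as well. Its brighter probe gave 2.21, 2.0 and 2.15 for the LECs and 0.77, 0.81 and 0.79 for the VECs, which was 2.52-fold higher in LECs (95% interval 2.22 to 2.86, limma adjusted p = 2.6e-05). The other Flt3l probe gave 1.49-fold in the same direction (95% interval 1.18 to 1.88, limma adjusted p = 0.011). These 4 genes thus shared a direction but not a size, from 2.52-fold for Flt3l to at least 97.3-fold for Il7.

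Kitl, the ligand of the receptor KIT on mast cells, interstitial cells of Cajal and blood stem cells, showed the largest difference toward VECs. Its brightest probe gave log2 signals of 3.28, 3.23 and 3.23 for the VECs and -1.97, -1.68 and -2.08 for the LECs, 35.5-fold lower in LECs (95% interval 29.4 to 43.0, limma adjusted p = 8.2e-07). All 3 Kitl probes were well above background on all 6 arrays, and the other probes gave 23.2-fold and 42.5-fold (95% intervals 17.5 to 30.7 and 28.6 to 63.3). The log2 difference of the brightest probe, -5.15, was -4.52 after normexp correction. The receptor gene Kit did not pass the test, with a difference of -0.20 on the log2 scale (95% interval -0.43 to 0.02, limma adjusted p = 0.098).

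Il6, which drives the acute phase response and the survival of plasma cells, was also brighter in VECs. Its brighter probe gave 4.59, 4.58 and 4.38 for the VECs and 1.14, 0.68 and 0.56 for the LECs. Thus Il6 was still above the 75th percentile of the array on all LEC arrays, but 13.2-fold lower than in VECs (95% interval 10.02 to 17.4, limma adjusted p = 9.4e-06), and the other probe gave 14.2-fold. The windows before the starts of Kitl and Il6, at chr10:100015571-100015820 and chr5:30012864-30013113 (GRCm38.p6, plus strand), are shown as those of the members that were lower in LECs and have a listed window. Capitals mark TATAAA and the ETS letters in Kitl, and the AP-1, C/EBP and NF-kB letters in Il6.
Kitl: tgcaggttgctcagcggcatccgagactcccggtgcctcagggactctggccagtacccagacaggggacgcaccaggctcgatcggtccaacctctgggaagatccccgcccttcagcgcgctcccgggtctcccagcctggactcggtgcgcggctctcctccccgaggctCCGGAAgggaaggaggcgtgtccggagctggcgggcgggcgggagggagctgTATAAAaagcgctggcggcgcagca
Il6: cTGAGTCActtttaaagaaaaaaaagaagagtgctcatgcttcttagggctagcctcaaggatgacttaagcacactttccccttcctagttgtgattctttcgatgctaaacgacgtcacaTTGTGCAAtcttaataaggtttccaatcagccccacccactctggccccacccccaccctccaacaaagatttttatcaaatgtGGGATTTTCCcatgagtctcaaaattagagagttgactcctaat
In Kitl the TATA letters lay at -25 to -20 and the ETS letters at -77 to -72. In Il6 the NF-kB letters lay at -44 to -35, and the NF-kB motif was in 3.9% of all windows, against 12% for the ETS, 6.75% for the AP-1 and 9.56% for the C/EBP letters. The window of Csf1, which did not pass the test with its brightest probe, also held the NF-kB letters, on the other strand at -154 to -145, and the window of Flt3l held none of the 6 motifs. A match to letters is a description and was not tested for binding.

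Csf3 encodes the granulocyte growth factor G-CSF. Its log2 signals were 0.96, 1.24 and 0.94 for the VECs and -3.01, -3.31 and -4.12 for the LECs, the latter well above background but near its limit. The LEC arrays spread more widely than the VEC arrays (SD 0.58 and 0.17, n = 3 each), and the populations stayed 3.95 log2 units apart at their nearest arrays. Csf3 was 23.0-fold lower in LECs (95% interval 14.1 to 37.6, limma adjusted p = 4.4e-05), and its log2 difference of -4.53 was -3.26 after normexp correction. Il15, which maintains natural killer cells and intraepithelial lymphocytes, differed least of the 4 genes that were lower in LECs. Its brighter probe gave 3.34, 3.35 and 3.33 for the VECs and 1.88, 2.21 and 2.08 for the LECs, so that Il15 was bright in both populations and 2.44-fold lower in LECs (95% interval 2.07 to 2.87, limma adjusted p = 8.4e-05). The other probe gave 2.48-fold.

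**Figure D2:**
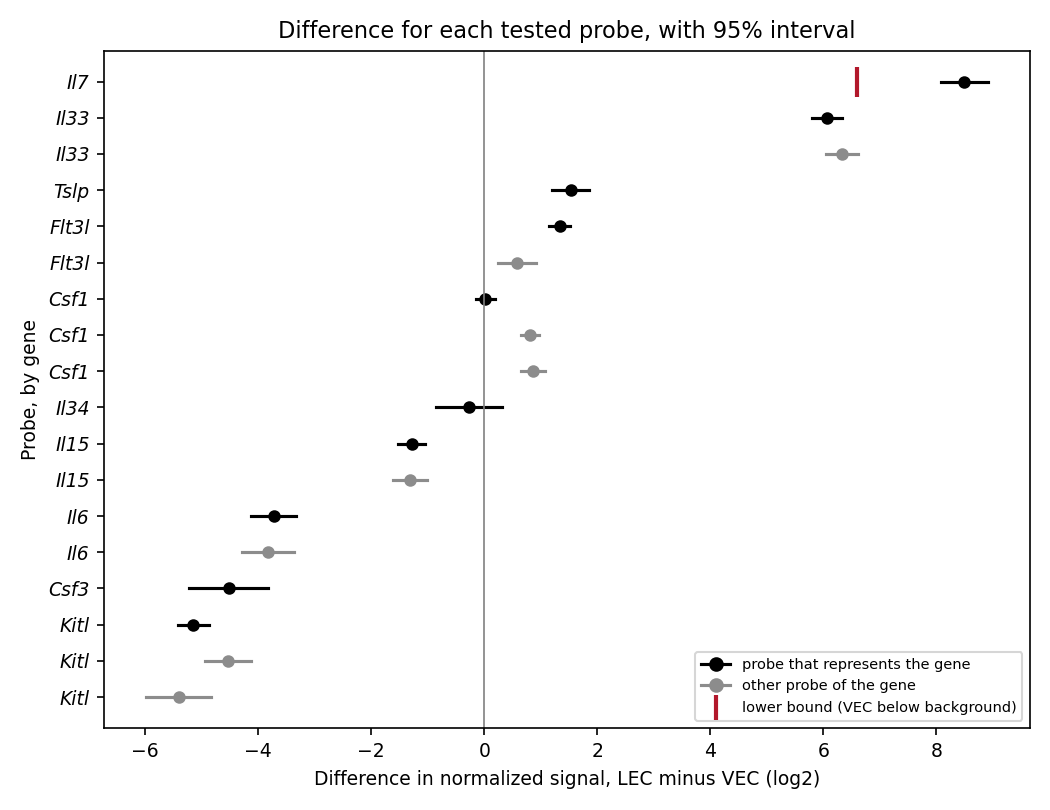
Difference in normalized log2 signal, LEC minus VEC, of the 18 tested probes of the 10 genes, with 95% intervals from limma; black points are the probes that represent a gene and gray points its other probes, and the red tick is the lower bound for Il7. Probes of Il33, Flt3l, Il15, Il6 and Kitl lie on the same side of 0 within each gene, whereas the brightest Csf1 probe lies at 0.02 and its other probes at 0.81 and 0.86.

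The ligands of the macrophage receptor CSF1R were the members that did not pass. Csf1, the main survival factor of tissue macrophages, gave log2 signals of 1.80, 1.77 and 1.77 for the VECs and 1.72, 1.90 and 1.77 for the LECs with its brightest probe. The populations overlapped, and the log2 difference was 0.02 (95% interval -0.15 to 0.19, limma adjusted p = 0.82), an interval that reaches 1.14-fold toward LECs. The other Csf1 probes, which carry the accession of another transcript variant, were 1.75-fold and 1.82-fold higher in LECs (limma adjusted p = 1.3e-04 and 2.7e-04), with every LEC array above every VEC array. With the mean of the 3 probes, Csf1 passed with a log2 difference of 0.56 (limma adjusted p = 7.5e-04). Whether transcript variants of Csf1 differ between the populations was not tested. Il34 was dim: its tested probe gave -2.10, -2.51 and -1.77 for the VECs and -2.58, -2.02 and -2.58 for the LECs. These overlapped, with a difference of -0.27 (95% interval -0.85 to 0.32, limma adjusted p = 0.36), and a difference of up to 1.81-fold toward VECs lies within that interval. The other Il34 probe was well above background on 2 VEC arrays and 1 LEC array and was not tested.

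**Figure D3:**
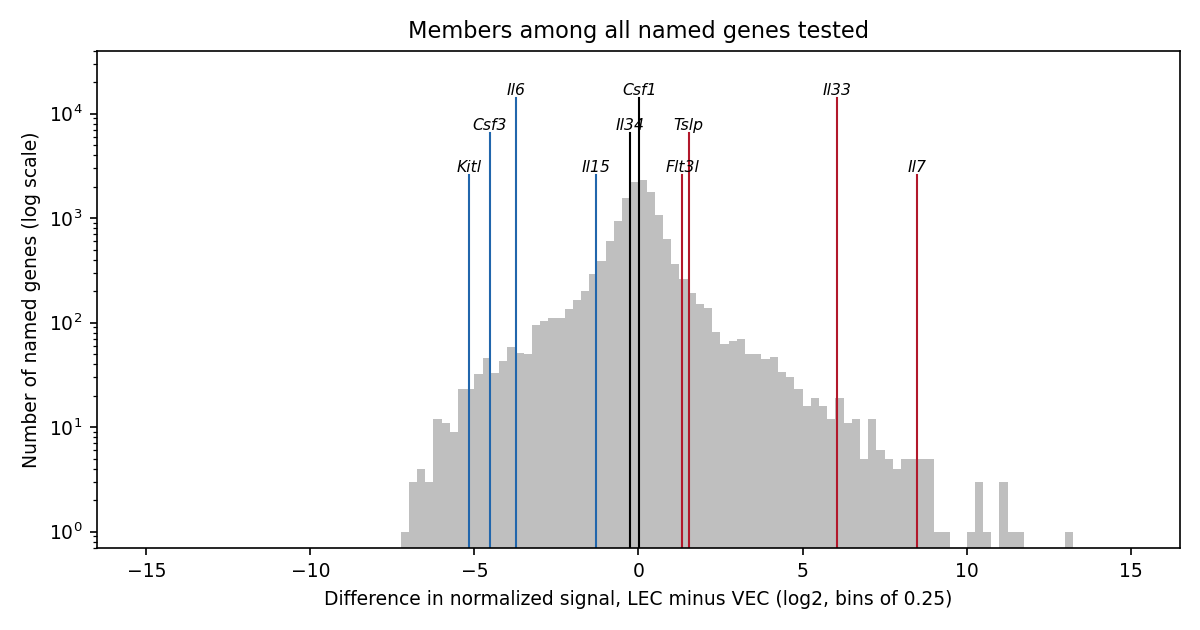
Number of named genes (log scale) by difference in normalized log2 signal, LEC minus VEC, for the 14971 genes tested; vertical lines mark the 10 members, red and blue for those higher and lower in LECs by limma and black for Csf1 and Il34, which did not pass. Il33, Kitl, Csf3 and Il6 lie in the thin tails, with 111, 241, 381 and 659 genes at a larger difference in either direction, and Il7 is drawn at 8.50, which rests on VEC signals not above background and gives no rank.

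The receptors of these cytokines were examined next. Of 14 receptor genes, 11 were tested: Il6ra, Ptprz1 and Il2rg (3 genes) were higher in LECs, Il6st (1 gene) was higher in VECs, and the remaining 7 did not pass. The median log2 difference over the 11 was -0.12. Il6ra, which gives the IL-6 receptor its specificity, was 5.20-fold higher in LECs (log2 signals of 3.85, 4.08 and 3.94 against 1.60, 1.53 and 1.62, limma adjusted p = 3.5e-06), and its other probe gave a log2 difference of 2.03. Il6st, the gene of the shared signaling subunit gp130, went the other way and was 2.15-fold lower in LECs (3.79, 3.64 and 3.73 against 4.80, 4.79 and 4.88, limma adjusted p = 4.2e-05). Hence the ligand Il6 and the subunit gene Il6st were brighter in VECs and Il6ra in LECs. Ptprz1, a receptor-type phosphatase that binds IL-34, was 4.82-fold higher in LECs and Il2rg, the common gamma chain, 1.22-fold (limma adjusted p = 6.0e-05 and 0.0055). Il15ra, which presents IL-15 to neighboring cells, did not pass with its brightest probe (log2 difference 0.14, 95% interval -0.04 to 0.32). Of its dimmer probes, 1 was higher in LECs (0.56, limma adjusted p = 0.0021) and the other did not pass (0.42, limma adjusted p = 0.21).

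Csf3r encodes the receptor for G-CSF and Crlf2 a subunit of the receptor for TSLP, and both were bright in both populations. Csf3r had a mean log2 signal of 7.52 ± 0.17 in VECs and 7.32 ± 0.097 in LECs, and Crlf2 one of 5.01 ± 0.084 and 4.91 ± 0.051 (SD, n = 3 each). Their log2 differences were -0.21 (95% interval -0.47 to 0.06) and -0.09 (95% interval -0.27 to 0.08), so neither passed. Another Crlf2 probe was much dimmer, with means of 0.46 in VECs and 0.40 in LECs, and did not pass (log2 difference -0.06). Csf3r had no other probe to set beside its bright one. Whether other cells in the sorted populations had a part in the Csf3r signal was not tested. Csf1r (-0.12), Il1rap (-0.13) and Il7r (-0.73) did not pass either, and Il7r was well above background on 2 of 3 LEC arrays. Il1rl1, the gene of the IL-33 receptor ST2, had 3 probes, none of them well above background on an array, and the same held for Flt3, the receptor gene for FLT3L. Il2rb was well above background on 1 of 3 VEC arrays and on no LEC array with the probe that was brightest on average. Its other probe was so on 2 of 3 VEC arrays and on no LEC array. The ligands Il33 and Flt3l were thus measured in both populations and higher in LECs, while Il1rl1 and Flt3 were not measurable in either.

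**Figure D4:**
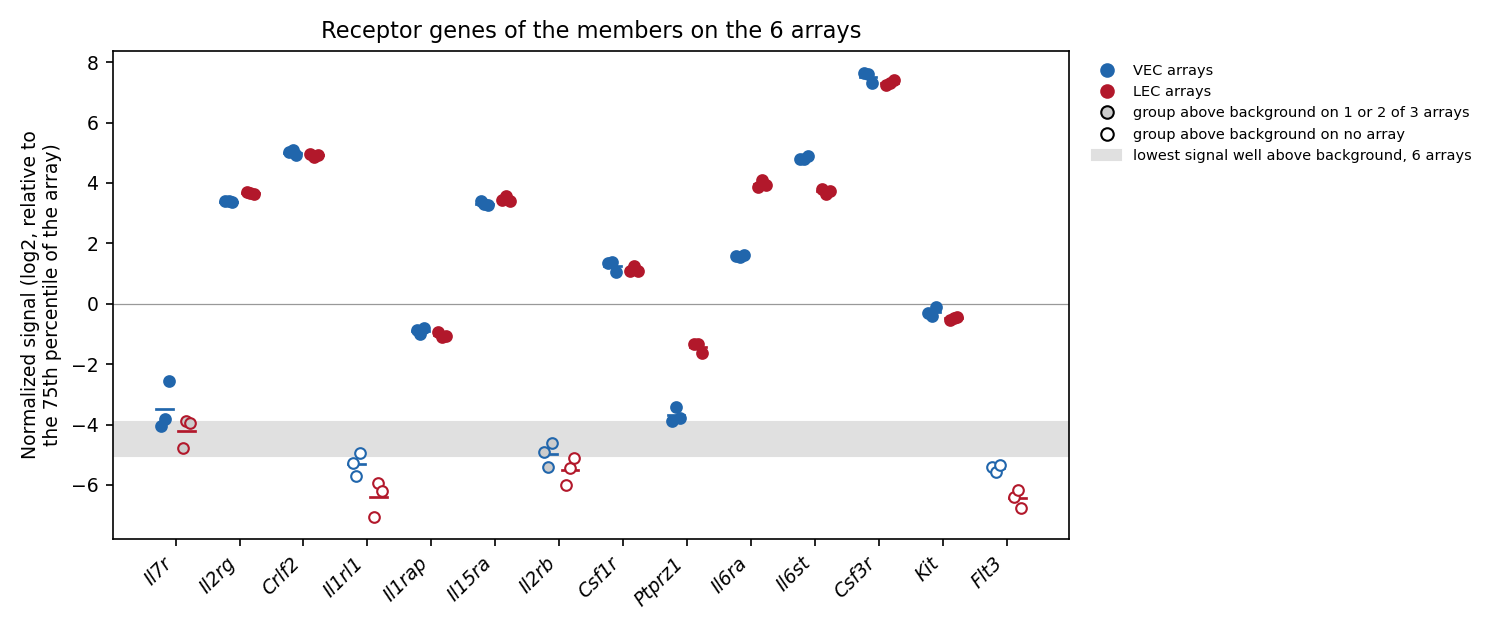
Normalized signal (log2, relative to the 75th percentile of each array) of the 14 receptor genes for each VEC array (blue) and each LEC array (red); gray-filled points belong to a population that was well above background on 1 or 2 of its 3 arrays, open points to one that was on none, and gray shading gives the range over arrays of the dimmest measurable signal. Il6ra and Ptprz1 are higher and Il6st is lower in LECs, and Il1rl1 and Flt3 lie at or below the shading.

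Cytokines related to the members were described from lists. Of 7 tested relatives of IL-6, LECs had the higher signal for 1 and VECs for 3, and 3 did not pass (median log2 difference over the 7, -0.26). Ctf1, the gene of cardiotrophin, was 2.44-fold higher in LECs, Clcf1 was 1.91-fold lower, and Ebi3 and Il11 were 2.80-fold and 1.93-fold lower, each being well above background on 2 of 3 LEC arrays (limma adjusted p = 4.7e-04, 5.8e-04, 0.017 and 0.0071). Lif, Cntf and Il27 had log2 differences of -0.11, -0.12 and -0.26. Osm, a cytokine of myeloid cells, was well above background on 2 of 3 LEC arrays and no VEC array. Thus the log2 differences of these 7 relatives lay between -1.48 and 1.29, against -3.72 for Il6.

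Among other alarmins and IL-1 cytokines, 8 of 12 listed genes were on the array by name and 3 were tested. Il1b was 3.86-fold higher in LECs (log2 signals of -0.87, -1.08 and -0.67 against -2.61, -3.72 and -2.13, limma adjusted p = 0.0063). Il1b is made mainly by myeloid cells, whose markers are given above; their part in the Il1b signal was not tested. Hmgb1, a nuclear protein that acts as an alarmin when released, was bright in both populations and did not pass (log2 difference 0.12, 95% interval -0.08 to 0.32), and neither did Il25 (-0.55). Il1rn and S100a9 were not well above background on any array, S100a8 was on 1 VEC array, and Il18 and Il1a were on 2 and 1 LEC arrays and on no VEC array. Of 10 lymphocyte and blood cell growth factors, 2 were tested and both were lower in LECs, Il3 1.98-fold and Thpo 1.39-fold (limma adjusted p = 5.5e-04 and 0.014). Il3 was well above background on 1 of 3 LEC arrays, and with dim LEC signals raised to the lowest such signal it was 1.81-fold lower. Another probe of Il3 and another of Thpo were not well above background on any array. The same held for 6 genes of the list (Il2, Il5, Il9, Il13, Csf2 and Epo).

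Proteases that cut or release these cytokines were measured as a last group, together with the genes of the rhomboid proteins, Rhbdf1 and Rhbdf2. Of these 14 genes 13 were tested, and over all named genes tested 66.9% passed. In LECs 4 of the 13 were higher and 8 lower (median log2 difference over the 13, -0.45). Toward LECs they were Mmp14, a membrane-bound matrix protease, 10.7-fold, Adam19, 3.23-fold, Casp1, which processes IL-1β and IL-18, 1.76-fold, and Adam10, 1.66-fold (limma adjusted p of at most 5.0e-04). Toward VECs, Rhbdf2, the gene of the rhomboid protein iRhom2 that escorts the sheddase ADAM17, was 6.16-fold higher, Ctsg 4.53-fold and Mmp2 2.86-fold (limma adjusted p of at most 3.7e-04). ADAM17, which sheds CSF1 from the cell surface, had a gene whose signal in VECs exceeded that in LECs 1.20-fold (limma adjusted p = 0.021). Ctsg and Elane encode neutrophil proteases that cut IL-33 into active forms, and for Elane the VEC signal was 1.40-fold higher (limma adjusted p = 0.033). Rhbdf1 (1.66-fold) and Adam9 (1.36-fold) were higher in VECs too, and Mmp9 was well above background on 2 LEC arrays and no VEC array.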

How the data were processed

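Signals of 6 one-color Agilent arrays of sorted VECs and LECs were used. The authors deposited spot intensities read with Agilent Feature Extraction 12.0.3.1, after its own background subtraction and without scaling between arrays, and a log2 table. The deposited log2 values differed from the log2 intensities by a constant for each array in at least 99.9% of probes (within 0.01), with no centering of genes and column medians from -3.19 to -3.13. Gene Spring GX and an ANOVA are named in the study's methods.

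Here, from log2 intensities without outlier spots, averaged by probe, the array's own 75th percentile (333 to 441 units) was subtracted. Probes that 3 of 3 arrays of either population measured well above background were fitted with limma 3.58.1 (R 4.3.3, lmFit and eBayes), with two-sided Benjamini-Hochberg adjusted p under 0.05 over 33776 probes. The code was tested on simulated data. The number of arrays limits the precision. RefSeq accessions (GRCm38.p6, names only) named 32994 probes. Each gene was given by the tested probe that was brightest on average. A fold against a population well above background on none of its arrays is a lower bound, with the dim signals raised to the lowest signal well above background. RefSeq promoter windows were listed for 5 of the 10 members, and 250 bases before a start were searched. Named were all members and every tested gene of the receptor, cytokine and protease lists, with examples from the 2 tested genes of largest difference in each cell marker list; items withheld for evaluation are not reported here. The members and lists were chosen with earlier results of these data known. Of the marker lists not given in the results, the pan-endothelial list had 0 higher and 6 lower in LECs of 8 tested and the list of interstitial cells of Cajal 1 and 1 of 4. Alternatives were other background corrections, scalings, filters, inputs, tests and probe summaries, a stricter threshold, the slide row as a block and each replicate left out.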

Additional observations from a re-analysis of the deposited data

How the results depend on the processing

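Over 20 alternatives, Il7, Il33, Tslp and Flt3l stayed higher and Kitl, Csf3, Il6 and Il15 lower in LECs with an adjusted p of at most 0.0037, except that Il7 had no value when only probes well above background on all 6 arrays were tested, where 3 members were higher. Csf1 had log2 differences of -0.0079 with normexp correction, -0.059 with the slide row as a block and -0.0309 to 0.0587 without 1 replicate (the lowest without LEC replicate 7), against 0.0195, and 0.56 with the mean of its probes, with which 5 members were higher. Leaving out 1 replicate gave log2 differences of -4.76 to -4.20 for Csf3 and -0.46 to -0.09 for Il34. Without scaling between arrays, 6916 probes were lower, against 11066, and the median log2 difference of all named genes was 0.24, against 0.02; the cause was not tested. The arrays shared 1 slide, with LEC 7 and 8 in its other row, so the comparison within a row rests on LEC 6, which alone differed from the VEC mean on the log2 scale by 6.05 for Il33, 1.45 for Tslp, 1.43 for Flt3l, -5.21 for Kitl, -4.06 for Csf3, -3.38 for Il6 and -1.46 for Il15. No paired analysis was possible because the populations share no replicate number. Naming probes by a symbol column was not run, since the array files used here hold accessions, and normexp used median signals because the planned mean signals were not among the columns used here. Signal over background limits Il7 and Tslp in VECs, Csf3 in LECs and Il34 in both populations. It also limits the folds of the dimmer Il33 probe, through VECs, and of the dimmer Kitl probes, through LECs.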
